A study of Homo sapiens with 6 samples.

Results

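Tight junctions seal the space between neighbouring epithelial cells, and polarity complexes keep the apical and the basolateral membrane apart. A total of 46 genes of these structures, of 35035 genes in the deposited table, are described here. They were chosen by name: every claudin symbol, the zonula occludens genes, JAM2 and JAM3, the PARD3 and PARD6 genes, and a fixed set of further junction and polarity genes. By role they comprise 20 claudins, 6 other membrane proteins of the junction, 7 scaffolds, 7 genes of the Par complex, 3 of the Crumbs complex and 3 of the Scribble complex. MPP5 is the older symbol of PALS1, and PATJ stands in the table under that name. CLDN17, CLDN19, CLDN25 and CLDN34 were not in the deposited table under these names.

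The RNA came from HK-2, an immortalised line of human proximal tubular epithelium, transfected with empty-vector plasmids (labelled wild type) or with circAASS overexpression plasmids (labelled circAASS-overexpressed), with 3 libraries in each group. The name circAASS points to a circular RNA from AASS, and the question was which transcripts differ between the groups. The labels do not say whether the transfection was stable. Both groups spent 24 h at 1% oxygen, followed by 12 h of reoxygenation, so hypoxia and reoxygenation are shared by the controls and their own effect cannot be seen. The design text names 24 h after the treatment, while the sample labels give 12 h. The labels do not say whether the repeats were separate cultures, so the p-values reflect only how far these libraries vary, which may be technical.

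Claudins are the transmembrane proteins that form the strands of the tight junction: some seal the path between cells, others form pores for ions or water through it. Occludin, tricellulin and the junctional adhesion molecules join the strands, and the zonula occludens, cingulin and MAGI proteins tie them to the actin cytoskeleton. The Par complex with atypical protein kinase C and the Crumbs complex define the apical side, and the Scribble complex the basolateral side. The proximal tubule is a leaky epithelium, and CLDN2, a pore for cations and water, is its best known claudin.

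Library totals were 45148425 to 58179563 reads. Values are RPKM, reads per kilobase of gene length scaled to library size, given as deposited. Of 12 proximal tubule markers 2 reached a mean of 1 RPKM, GGT1 and SLC5A2, and LRP2, CUBN, SLC34A1 and AQP1, which define the segment, had group means of 0.00242 to 0.0432 RPKM. The markers summed to 12.9 to 14.7 RPKM with empty vector and to 9.60 to 9.97 with circAASS, while 9 markers of renal epithelium summed to 361 to 379 and 408 to 453. These 9 did not move together. The means of PAX8, PAX2, KRT8, KRT18, KRT19 and CDH2 were higher with circAASS, that of KRT19 only slightly. CDH6 stood at 13.5 and 4.89 RPKM in the means, EPCAM at 26.8 and 22.1, and CDH1 at only 0.0659 and 0.0219. Among other cell types, 8 markers of later nephron segments summed to at most 0.160 RPKM in any library and 6 endothelial markers to at most 0.107. The 7 fibroblast markers summed to 3.69 to 4.47 RPKM with empty vector and 4.17 to 4.49 with circAASS, and the 5 leukocyte markers to 102 to 106 and 78.6 to 101, nearly all of it CD68, with PTPRC at 0.00661 and 0.00805. RN7SK, an RNA without a poly(A) tail, stood at 34.1 to 44.7 RPKM with empty vector and 55.6 to 190 with circAASS (chosen after its values were seen). The part of these differences in the results below was not tested.

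Junction and polarity transcripts moved in both directions. CLDN1, the most abundant member, and OCLN, occludin, rose 1.71-fold and 1.53-fold, while CLDN2 fell 3.19-fold. In RNA from whole cultures, fewer cells that express a gene and less of its RNA per cell cannot be told apart. AASS, the host gene, stood at 1.20, 1.38 and 1.10 RPKM with empty vector and 0.836, 0.977 and 0.827 with circAASS (log2 fold change -0.37, limma adjusted p = 0.0677), and reads of the circular RNA were not analysed here. Of the 46 members 35 passed the filter on low values, and 12 of these changed, 4 higher and 8 lower with circAASS (limma, Benjamini-Hochberg adjusted over all genes tested). That is 34.3% of the tested members, beside 32.3% of all 19349 genes tested, of which 16.0% were higher and 16.3% lower, so the share of changed members was near that of all genes. Scaled only by library size, 2159 genes were higher and 4023 lower. The median log2 fold change of the tested members was 0.05, beside -0.01 for all genes. The ranges of the groups did not overlap in 19 of the 35 (54.3%), beside 47.5% of all genes tested. CLDN1, CLDN2, OCLN, F11R, PRKCI and MAGI3 kept their calls under all 15 alternatives tried.

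**Figure D1:**
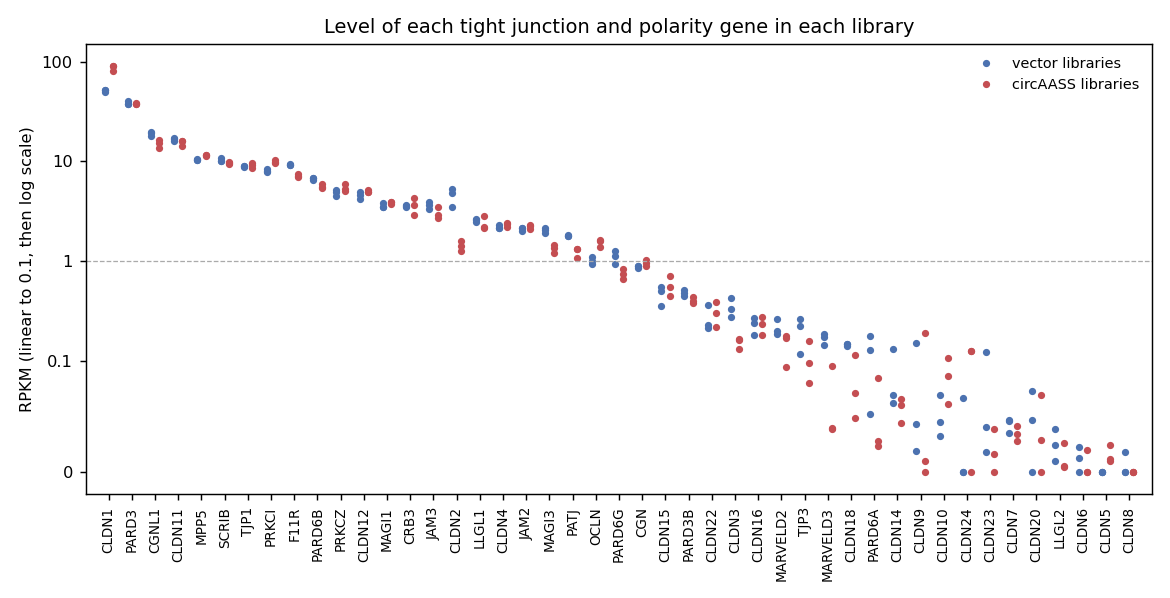
RPKM of 45 of the genes (linear to 0.1, then a log scale) in the 3 vector and the 3 circAASS libraries, ordered by mean level, with a dashed line at 1 RPKM. CLDN1 leads at about 51.0 RPKM with vector and 87.1 with circAASS, 22 of those drawn have a mean of at least 1 RPKM, and the separation of the groups is widest, among genes above the line, at CLDN2.

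The stretches upstream of transcript starts are shown for 4 members with large changes on the log2(RPKM + 0.1) scale, CLDN1 and OCLN, which rose, and CLDN2 and CLDN3, which fell. They come from RefSeq (GRCh38.p14), of which 33 of the 46 members have an entry, and lie within the 250 bases before a start. Bases in any exon of GENCODE 29 were left out. Capitals mark ACGTG on either strand, the core of the element bound by hypoxia-inducible factors.
CLDN1: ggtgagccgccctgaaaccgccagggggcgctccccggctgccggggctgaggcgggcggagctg
OCLN: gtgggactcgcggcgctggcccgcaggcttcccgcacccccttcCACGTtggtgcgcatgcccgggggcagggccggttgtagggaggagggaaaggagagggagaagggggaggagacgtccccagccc
CLDN3: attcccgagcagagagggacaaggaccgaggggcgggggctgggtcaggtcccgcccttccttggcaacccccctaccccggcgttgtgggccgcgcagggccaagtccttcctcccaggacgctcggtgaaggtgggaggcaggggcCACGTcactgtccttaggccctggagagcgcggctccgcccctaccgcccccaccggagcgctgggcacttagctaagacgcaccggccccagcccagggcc
CLDN2 (a): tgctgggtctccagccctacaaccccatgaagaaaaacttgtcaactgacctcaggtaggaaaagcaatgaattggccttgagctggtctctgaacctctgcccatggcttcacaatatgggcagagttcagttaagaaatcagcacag
CLDN2 (b): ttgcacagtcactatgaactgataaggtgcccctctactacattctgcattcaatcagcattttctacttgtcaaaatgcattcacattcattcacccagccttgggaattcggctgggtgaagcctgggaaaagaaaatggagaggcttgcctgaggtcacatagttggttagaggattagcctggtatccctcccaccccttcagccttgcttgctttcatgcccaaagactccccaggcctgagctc
The stretch of CLDN1 is chr3:190322476-190322540 on the minus strand and that of CLDN3 chr7:73770271-73770520, also minus. The stretch of CLDN1 is the whole gap between CLDN1 and CLDN16. That of OCLN is chr5:69492660-69492789 on the plus strand before a start inside the annotated gene. Those of CLDN2 are chrX:106899914-106900062 and chrX:106918110-106918359, both plus, the first (a) lying farther upstream. G and C made up 80% of the bases of the CLDN1 stretch, 72.3% for OCLN and 71.6% for CLDN3, against 48.3% and 48.8% for those of CLDN2. The windows of all 33 members and all 35116 windows of the table were searched on both strands. The ACGTG core stood in 28.6% of the 49 member windows, beside 18.5% of all windows, and can overlap its own reverse complement. The motif CAGGTG, which the SNAI and ZEB repressors bind, stood in 24.5% of member windows and 17.5% of all. OCLN had it at base -33 from a start farther upstream and at base -133 from the start shown. Neither match lies whole within the printed stretch. The site of AP-1, searched as TGANTCA, was found in 8.16% and 6.57%, among the members upstream of CLDN2, CLDN4, CLDN15 and CLDN16. That of CLDN2 begins at base -60 from the first start, in an exon, and so lies outside the printed stretch, since whole windows were searched. Which start is used in these cells was not tested, and a match is no evidence of binding.

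CLDN1, a sealing claudin (chromosome 3, 190305701 to 190322475, minus strand, GENCODE 29 on GRCh38), stood at 49.6, 51.4 and 51.9 RPKM with empty vector. It stood at 80.8, 91.1 and 89.4 RPKM with circAASS. All circAASS libraries lay above all vector libraries, and the means were 51.0 ± 1.23 and 87.1 ± 5.51 RPKM (SD, n = 3 each), a ratio of 1.71. The log2 fold change was 0.84 (SE 0.05, limma adjusted p = 0.000148).

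CLDN2 (chromosome X, 106900164 to 106930861) went the other way. It stood at 3.53, 5.33 and 4.84 RPKM in the vector libraries, against 1.28, 1.42 and 1.59 in the circAASS libraries. The lowest vector library, library 1, was well above the highest circAASS library. The mean fell from 4.57 ± 0.934 to 1.43 ± 0.157 RPKM, which is 3.19-fold lower (log2 fold change -1.52, SE 0.15, limma adjusted p = 0.000715), from 543 to 928 reads down to 209 to 282. Another gene, RIPPLY1, lies antisense to 10.0% of its exon bases. CLDN3, a sealing claudin (chromosome 7, 73768997 to 73770270), was at 0.278, 0.431 and 0.329 RPKM with empty vector and at 0.131, 0.162 and 0.166 with circAASS. The groups did not overlap, but these values rest on 16, 28 and 22 reads against 8, 12 and 10. These numbers are all even, and a fragment often counted as 2 reads. The log2 fold change of CLDN3 was -0.76 (SE 0.18, limma adjusted p = 0.0164). The call was lost in limma's voom fit of the reads (adjusted p = 0.0893) and with no filter on low values (0.0759), the range over all alternatives being 0.0117 to 0.0893.

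The claudins that did not pass the test included the next most abundant ones. CLDN11, known from myelin and the testis, stood at 17.0, 15.9 and 17.3 RPKM with empty vector and 14.2, 16.2 and 16.0 with circAASS, and the ranges overlapped. Its 95% interval ran from -0.19 to 0.10 on the log2 scale (limma adjusted p = 0.615), and a gene on the same strand covers 18.3% of its exon bases, so its reads are uncertain. CLDN12 had means of 4.59 and 5.03 RPKM (adjusted p = 0.0695, with other genes of its strand over 16.3% of its exon bases) and CLDN4, a sealing claudin of the distal nephron, 2.21 and 2.33 (adjusted p = 0.171, limma). CLDN15, a cation pore, CLDN16, which serves divalent cations in the thick ascending limb, CLDN10, CLDN18 and CLDN22 had group means between 0.0492 and 0.573 RPKM and did not pass (limma adjusted p from 0.0893 to 0.853). CLDN18, the lowest of these p, passed without circAASS library 3. Another gene, WWC2, lies antisense to 100% of the exon bases of CLDN22, and DZIP1 to 46.1% of those of CLDN10. The strand setting of the read counts was not given, so their reads are uncertain.

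The other 9 claudins did not pass the filter: CLDN5, CLDN6, CLDN7, CLDN8, CLDN9, CLDN14, CLDN20, CLDN23 and CLDN24, with 0 to 23 reads in a library. CLDN5, the claudin of endothelial barriers, had 0 reads in each vector library and 2, 2 and 4 in the circAASS libraries. CLDN8, of the collecting duct, had 2 reads in vector library 3 and 0 in the other 5 libraries. CLDN9 was uneven among libraries of the same group, with 4, 16 and 2 reads against 1, 23 and 0. Most low read numbers were even (78.6% of those from 1 to 20), so a fragment often counted as 2 reads. At this depth, differences between the groups in these genes were not tested in the main fit.

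As a whole, claudin transcripts summed to 78.6, 81.1 and 83.1 RPKM with empty vector and 105, 118 and 116 with circAASS. CLDN1 made up 63.1%, 63.4% and 62.5% of this sum in the vector libraries and 76.9%, 77.2% and 77% in the circAASS libraries. Without CLDN1 the sum was 29.96 ± 1.09 and 26.0 ± 1.43 RPKM (SD, n = 3 each), and CLDN2 made up most of that difference. The mean of CLDN11, which did not pass, was also lower, at 16.7 and 15.4 RPKM. Its log2 fold change after scaling was only -0.04, whereas the sums use RPKM as deposited. The means of CLDN4, CLDN12 and CLDN15 were not lower with circAASS. The share of CLDN2 was 4.49% to 6.58% with empty vector and 1.2% to 1.37% with circAASS, and the ratio of CLDN1 to CLDN2 went from between 9.64 and 14.1 to between 56.2 and 64.1. These sums and shares are descriptions and were not tested.

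**Figure D2:**
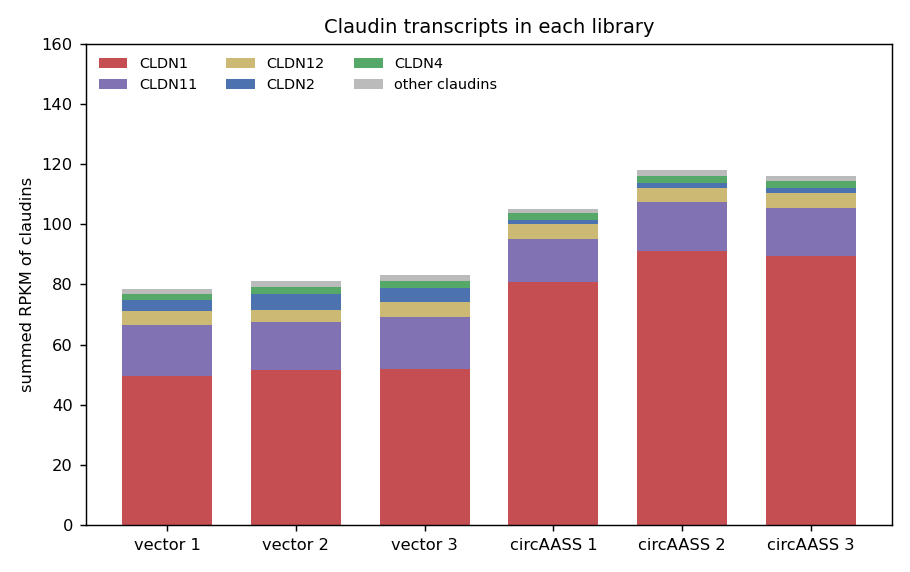
Summed RPKM of the 20 claudins in each library, stacked by gene, with the 15 least abundant ones pooled in grey. The bars reach 78.6 to 83.1 with vector and 105 to 118 with circAASS, and the CLDN2 band is thinner in every circAASS library.

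OCLN, occludin (chromosome 5, 69492292 to 69558104), stood at 0.940, 1.09 and 1.01 RPKM with empty vector and 1.4, 1.61 and 1.65 with circAASS, without overlap. The mean rose from 1.02 ± 0.0750 to 1.55 ± 0.134 RPKM (log2 fold change 0.63, SE 0.11, limma adjusted p = 0.00466). F11R, which encodes the junctional adhesion molecule JAM-A (chromosome 1, 160995211 to 161021348), fell from 9.18, 9.13 and 9.34 RPKM to 6.96, 7.43 and 7.19. Its groups were tight and apart, with a log2 fold change of -0.28 (SE 0.05, limma adjusted p = 0.00601). An overlapping gene on the same strand shares 36.6% of its exon bases, so its reads are uncertain.

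MARVELD3, a relative of occludin (chromosome 16, 71626161 to 71642114), was at 0.186, 0.146 and 0.174 RPKM with empty vector and 0.0388, 0.0960 and 0.0393 with circAASS, from 48 to 59 reads against 12, 36 and 12. Its log2 fold change was -0.75 (SE 0.19, limma adjusted p = 0.0219). The call was lost without vector library 1 (adjusted p = 0.0616), vector library 3 (0.0576), circAASS library 1 (0.0596) or circAASS library 3 (0.0664), and over all alternatives the adjusted p ran from 0.00321 to 0.132. PHLPP2 and another gene lie antisense to 18.1% of its exon bases. MARVELD2, tricellulin, which seals the corners where 3 cells meet, had means of 0.217 and 0.149 RPKM (log2 fold change -0.31, limma adjusted p = 0.275). JAM2 stood at 2.10 and 2.21 RPKM and JAM3 at 3.62 and 3.04, and neither passed (limma adjusted p = 0.214 and 0.208).

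Several members lie side by side on a chromosome. CLDN3 and CLDN4 are 29.3 kb apart, in opposite orientation, and had log2 fold changes of -0.76 and 0.15. MARVELD2 and OCLN, 48 kb apart on the same strand, had -0.31 and 0.63. CLDN1 and CLDN16 are annotated 65 bases apart and point away from each other. CLDN16 stood at 0.230 and 0.231 RPKM in the means while CLDN1 changed by 0.84 on the log2 scale. The difference within each pair was not tested.

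**Figure D3:**
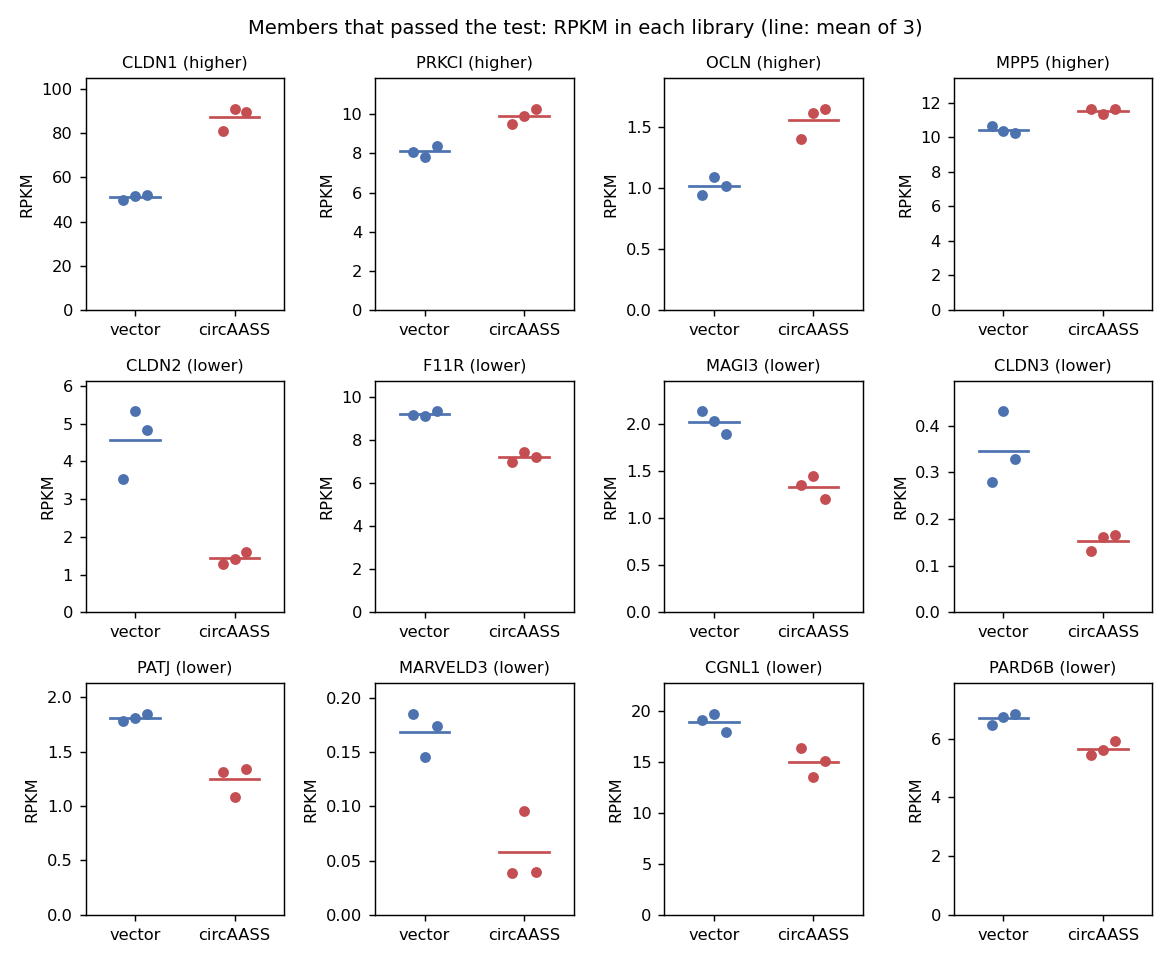
RPKM (axis from 0) in each of the 3 vector and 3 circAASS libraries for the 12 members that passed the test, 4 higher and 8 lower, with a line at each group's mean. The groups do not overlap in any of the 12 panels, which the test favours.

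Of the 7 scaffolds 2 fell, MAGI3 and CGNL1, and the other 5 did not pass. MAGI3, a multi-PDZ scaffold (chromosome 1, 113390749 to 113685923), fell from 2.14, 2.03 and 1.90 RPKM to 1.36, 1.45 and 1.20. All circAASS values were below all vector values, with a log2 fold change of -0.50 (SE 0.11, limma adjusted p = 0.0125). CGNL1, paracingulin (chromosome 15, 57375967 to 57550727), was the most abundant scaffold at 19.1, 19.8 and 18.0 RPKM with empty vector, and 16.4, 13.6 and 15.1 with circAASS. Its log2 fold change was -0.27 (SE 0.08, limma adjusted p = 0.0438). This call was lost without vector library 1 (0.118), 2 (0.139) or 3 (0.0555) and without circAASS library 2 (0.101) or 3 (0.12), all as adjusted p, in a range of 0.00194 to 0.139 over all alternatives.

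TJP1, which encodes ZO-1, stood at 8.97, 9.02 and 8.85 RPKM with empty vector and 9.23, 8.63 and 9.70 with circAASS, with overlapping ranges and a 95% interval of -0.02 to 0.24 on the log2 scale (limma adjusted p = 0.179). TJP3, another zonula occludens gene (0.201 and 0.112 RPKM in the means), CGN, cingulin (0.881 and 0.958), and MAGI1 (3.62 and 3.86) did not pass (limma adjusted p = 0.206, 0.263 and 0.126), although MAGI1 passed with voom.

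In the Par complex the kinase rose and an adaptor fell. PRKCI, the atypical protein kinase C iota (chromosome 3, 170222365 to 170305981), rose from 8.10, 7.84 and 8.41 RPKM to 9.53, 9.92 and 10.3. Its groups did not overlap, and the log2 fold change was 0.36 (SE 0.05, limma adjusted p = 0.00238). Its paralogue PRKCZ stood at 5.15, 4.95 and 4.53 against 5.02, 5.91 and 5.23 RPKM, with a log2 fold change of 0.21 that did not pass (limma adjusted p = 0.10001, and 0.0174 with voom, the range over alternatives being 0.0174 to 0.254). Whether the 2 kinases differ in response was not tested.

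PARD6B, the adaptor between the kinase and the small GTPase CDC42 (chromosome 20, 50731544 to 50756795), fell from 6.47, 6.74 and 6.85 to 5.43, 5.60 and 5.92 RPKM. Its log2 fold change of -0.17 (SE 0.05) passed narrowly (limma adjusted p = 0.0491). The call was lost when any 1 of the 6 libraries was left out: adjusted p was 0.0815, 0.15 and 0.144 without vector library 1, 2 and 3, and 0.106, 0.0924 and 0.0815 without circAASS library 1, 2 and 3. It was also lost with the repeat number as a block (0.0965), over a range of 0.0221 to 0.15. PARD6G stood at 1.11 and 0.7503 RPKM in the means with groups that did not overlap (limma adjusted p = 0.058, passing with voom, with library size alone and without vector library 3), and PARD6A had 2 to 12 reads and was not tested.

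PARD3, the scaffold of the complex and the second most abundant member, did not pass. It stood at 37.7, 39.95 and 37.8 RPKM with empty vector and 38.4, 37.9 and 37.5 with circAASS. Its 95% interval of -0.06 to 0.17 on the log2 scale holds no change (limma adjusted p = 0.444). PARD3B was at 0.481 and 0.403 RPKM in the means (limma adjusted p = 0.463).

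In the Crumbs complex the partners MPP5 and PATJ changed in opposite directions. MPP5, PALS1, which links Crumbs to PATJ (chromosome 14, 67241109 to 67335819), rose from 10.7, 10.4 and 10.3 RPKM to 11.7, 11.3 and 11.6, a log2 fold change of 0.21 (SE 0.05, limma adjusted p = 0.0155). PATJ, the scaffold it holds at the junction (chromosome 1, 61742406 to 62178675), fell from 1.78, 1.81 and 1.85 RPKM to 1.31, 1.08 and 1.34, a log2 fold change of -0.45 (SE 0.11, limma adjusted p = 0.0175). The groups of each gene were apart, yet both calls were lost without vector library 2 (adjusted p = 0.0539 for MPP5 and 0.057 for PATJ) or 3 (0.059 and 0.0559). That of MPP5 was also lost with library size alone (0.0604), and over the alternatives the adjusted p ran from 0.00304 to 0.0604 for MPP5 and from 7e-05 to 0.057 for PATJ. CRB3, the Crumbs protein of epithelia, stood at 3.69, 3.55 and 3.50 against 4.27, 2.90 and 3.66 RPKM (limma adjusted p = 0.731).

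Neither of the tested Scribble complex genes passed, in limma or in its voom fit. SCRIB was at 10.8, 10.1 and 10.2 RPKM with empty vector and at 9.71, 9.46 and 9.84 with circAASS. These deposited values do not overlap, but after the scaling between libraries its log2 fold change was -0.03 with a 95% interval of -0.15 to 0.10 (limma adjusted p = 0.753). LLGL1 stood at 2.60 and 2.39 RPKM in the means (interval -0.33 to 0.22, limma adjusted p = 0.738), and LLGL2, with 2 to 14 reads in a library, was not tested. At an unadjusted p under 0.05 neither SCRIB nor LLGL1 passed.

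**Figure D4:**
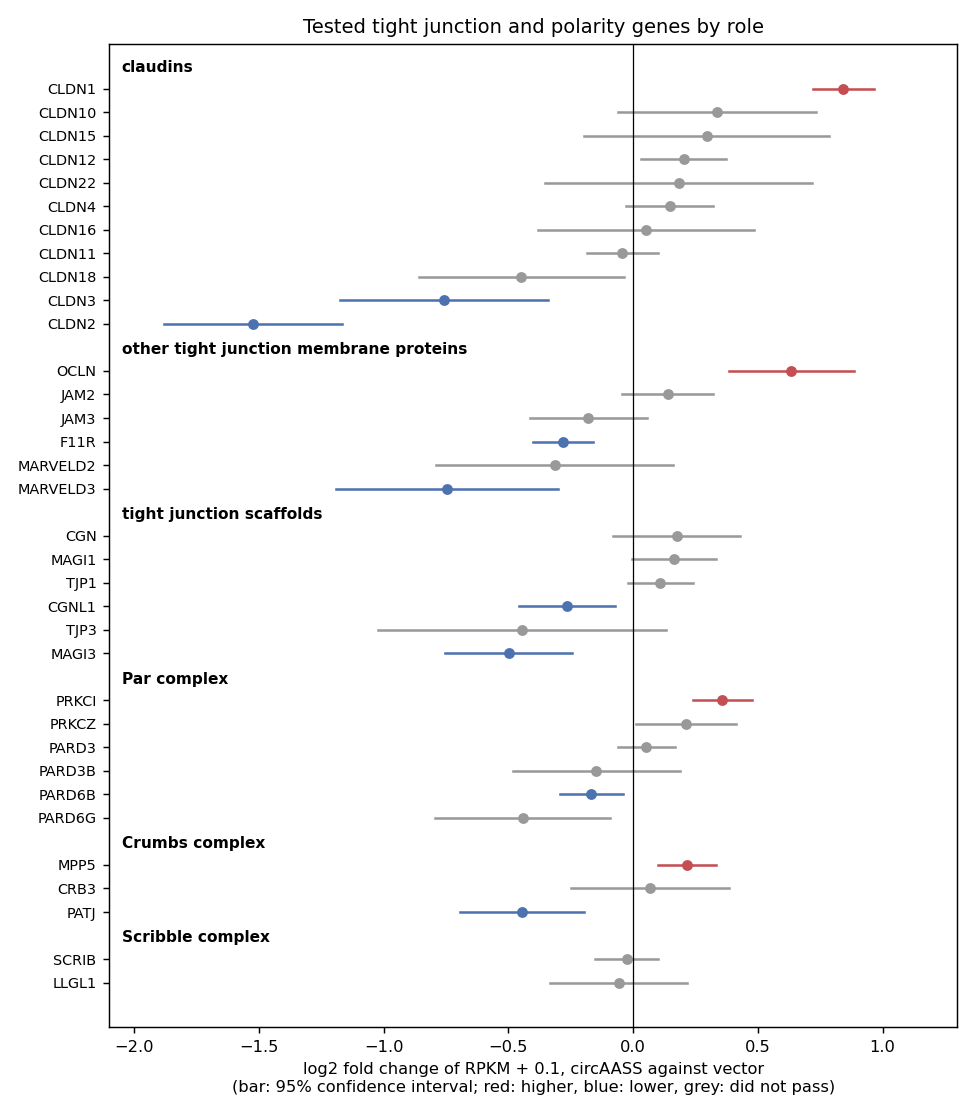
Log2 fold change of RPKM + 0.1, circAASS against vector, of 34 of the tested members by role, with 95% confidence intervals not adjusted for the number of genes. Red and blue mark the 4 genes that were higher and the 8 that were lower by adjusted p. CLDN2 at -1.52 and CLDN1 at 0.84 are the extremes, and most other intervals lie near 0.

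Genes that work with these members were counted in 5 further lists of 95 genes, of which 87 were tested. The lists were chosen with earlier results of these data known. Their shares beside those of all genes are therefore descriptions, and the part of the choice in them was not tested. Of these 17 were higher and 13 lower (34.5%, beside 32.3% of all genes), with a median log2 fold change of 0.07; scaled only by library size, 12 were higher and 14 lower. Polarity regulators had 13 higher (36.1%) and 4 lower (11.1%) of 36 tested, with a median of 0.13, beside 16.0% and 16.3% of all genes. Scaled only by library size, 10 of them were higher and 4 lower. STX3, the apical syntaxin, rose from 5.70 ± 0.171 to 8.37 ± 0.289 RPKM, and ECT2, which acts in cytokinesis and binds Par proteins, from 28.96 ± 0.190 to 41.6 ± 3.54 (SD, n = 3 each). MARK3, a Par-1 kinase, rose from 6.13 to 8.31 RPKM, while MYO5B, a motor of apical recycling, fell from 3.67 to 2.26. The log2 fold changes of these 4 were 0.62, 0.59, 0.50 and -0.60, with limma adjusted p of at most 0.00321.

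Of 15 tested actomyosin genes of the junction 6 were lower (40%, beside 16.3% of all genes) and the other 9 did not pass, with a median of -0.08. With 1 library left out, 4 to 6 were lower, with 4 in the fits without vector library 1 or 2 or circAASS library 2 or 3. Some fits also called higher genes in this list: voom called 3 higher and 7 lower. Without circAASS library 1 or 3, 1 was higher, as with median-of-ratios scaling and with a filter at a mean of 1 RPKM. MYLK, the myosin light chain kinase, fell from 14.5 ± 0.536 to 8.64 ± 0.934 RPKM (log2 fold change -0.67, SE 0.08, limma adjusted p = 0.00142). The light chain MYL9 fell from 74.2 to 55.7 RPKM, the junctional linker VCL, vinculin, from 31.5 to 23.9 and the non-muscle myosin MYH10 from 105 to 79.1, with log2 fold changes between -0.34 and -0.32. MYH9 and ACTN4 were the other 2 that fell. Of 22 plaque and scaffold genes 2 were higher and 1 lower (13.6% changed, beside 32.3% of all genes, median 0.07). ARHGEF2, an exchange factor held at tight junctions, rose from 4.75 to 6.58 RPKM and EZR, ezrin, from 320.2 to 394, and the angiomotin AMOTL1 fell from 4.90 to 3.17 (log2 fold changes 0.54, 0.37 and -0.55, limma adjusted p of at most 0.00566). ARHGEF18 was at 7.09 and 7.80 RPKM (limma adjusted p = 0.0519, in a range of 0.0137 to 0.204 over the alternatives, 4 of which called it). A gene on the same strand covers 76.4% of its exon bases, so its reads are uncertain.

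Of 10 other junction membrane proteins 1 was higher and 2 lower (30% changed, beside 32.3% of all genes, median 0.09). LSR, an angulin that recruits tricellulin to cell corners, fell from 4.19 ± 0.230 to 2.67 ± 0.391 RPKM (log2 fold change -0.57, SE 0.11, limma adjusted p = 0.00759). EPCAM, which binds and stabilises claudins, fell from 26.8 to 22.1 RPKM and VSIG1 rose from 1.18 to 1.47 (limma adjusted p = 0.0284 and 0.0299). Neither call was stable: with 1 library left out at a time, each was lost in 5 of 6 fits, at adjusted p up to 0.106 and 0.0868. The log2 fold changes kept their sign over all alternatives, from -0.28 to -0.16 for EPCAM and from 0.22 to 0.40 for VSIG1. Among the fits with 1 library left out, both calls held only without circAASS library 1. Of the 9 other settings, EPCAM kept its call in 7 and VSIG1 in 6. VMP1 stood at 16.0 and 16.3 RPKM (limma adjusted p = 0.168). Of 4 tested nectins only NECTIN2 changed (25%, beside 32.3% of all genes). It rose from 16.9 to 18.0 RPKM (limma adjusted p = 0.0489), with overlapping groups. With 1 library left out this call held only without vector library 1, the adjusted p reaching 0.151 in the other 5 fits. It was also lost in 4 of the 9 other settings, at adjusted p up to 0.244 (library size alone). PVR stood at 61.6 and 64.4 RPKM, NECTIN3 at 4.32 and 4.405 and NECTIN1 at 0.586 and 0.456, and none of these passed.

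**Figure D5:**
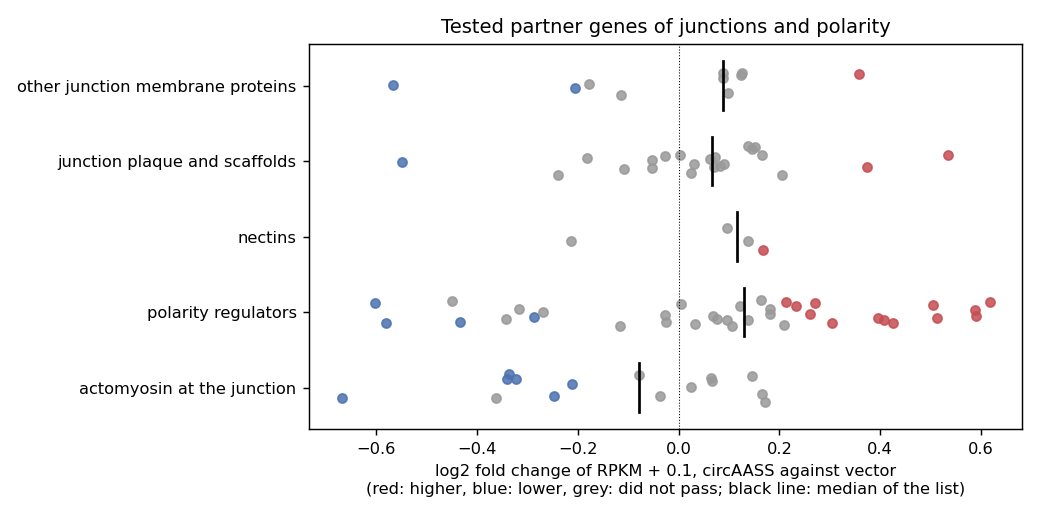
Log2 fold change of RPKM + 0.1 of the 87 tested partner genes, 1 point a gene, in 5 lists, with a black line at each list's median. Polarity regulators hold 13 red points (higher) and 4 blue ones (lower); the actomyosin list holds 6 blue points and no red one.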

How the data were processed

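RNA was sequenced from 6 HK-2 libraries, grouped by sample title. Per the labels' protocols, a stranded mRNA kit and paired reads were used. The submitters' processing notes name Trimmomatic 0.36, featureCounts, Subread 1.5.1, edgeR 3.12.1 and GRCh38; the aligner, annotation version and strand setting were not given in the sources used here. The values the authors deposited were RPKM, not raw counts. Names of 28 genes had become dates and were left out.

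Whole reads were worked out from RPKM and GENCODE 29 exon lengths: 22385 of 24697 genes with a length (90.6%) gave whole reads within 0.02 reads in all 6 libraries. For 12621 other genes, including those without a single annotated length, the shortest fitting length was used. Among them were PATJ, SCRIB, CLDN11 and MARVELD2. Their read numbers are thus the smallest that fit, and they entered the filter, the scaling factors and voom. RPKM were divided by trimmed-mean factors of 0.958 to 1.036. The values log2(RPKM + 0.1) were compared in limma 3.58.1 (R 4.3.3) with a trended, robust prior, two-sided, Benjamini-Hochberg threshold 0.05, on genes reaching 10 reads (scaled to the median library) in 3 libraries and 15 in all; the script was tested on simulated data. Fold changes on this scale understate changes of low genes. A total of 15 alternatives were run.

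Members and lists were chosen with earlier results of these data known. Library values are given for members that passed or had a mean of at least 5 RPKM, and for partners the 4 smallest p of each list are named; other genes were added to complete counts. Numbers of exon overlap are from GENCODE 29, either strand. Results of 1 member are counted but not reported here.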

Additional observations from a re-analysis of the deposited data

How the results depend on the processing

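Of the 12 members that changed, 6 kept their call under all 15 alternatives. Voom on whole reads called 7 members higher, against 4, adding PRKCZ, MAGI1 and CLDN12. It called 8 lower, as in the main fit, with PARD6G added and CLDN3 lost. With no filter on low values 4 were lower, against 8. When a library was left out, 8 to 11 members changed, 3 to 5 higher and 5 to 6 lower; the 5 came without vector library 1, 2 or 3. Over all genes the same fits gave 4202 to 5695 changed, 2189 to 2790 higher and 2013 to 2905 lower, the 2013 without vector library 2. For partners they gave 21 to 29 changed, 12 to 16 higher and 9 to 13 lower. Partners higher numbered 11, against 17, with no filter and with the replicate block. The cause of these changes was not tested. The log2 fold change turned for PARD3 with library size alone (-0.020). With a library left out it ran from -0.042 to 0.015 for SCRIB, turning without vector library 1, and from -0.079 to 0.005 for CLDN11, turning without circAASS library 1; none of the 3 passed in any fit. Libraries with the same repeat number did not deviate together (correlations of -0.005, -0.024 and 0.023, and not every library correlated best with its own number). They were not treated as pairs in the main fit. The correlations cannot show whether repeats of the same number were handled together, and the labels do not say. With the replicate block 10 members, 23 partners and 5428 genes changed, against 12, 30 and 6243 in the main fit. Depth limits CLDN3, CLDN10 and the 11 untested members most.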
